A study of Mus musculus with 8 samples.

Results

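MHC class I presentation was followed through 9 genes: the heavy chains H2-K1, H2-D1 and H2-M3, the light chain B2m, the peptide transporter subunits Tap1 and Tap2, the loading factor Tapbp (tapasin), the peptidase Erap1 and the transcriptional activator Nlrc5. They were chosen by name, and a probe set counted for a gene if its annotation listed that symbol alone. By this rule 6 of the 9 genes were measured, among 17097 genes in all. B2m, Tap1 and Tap2 had no such probe set in the annotation used here and were not analysed here. Where a gene had several, the 1 with the highest mean level stood for it.

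The samples were dermal fibroblasts of 4 old mice (18 months) and 4 young mice (2 months), with 1 array per animal. Cells had been sorted from collagenase-digested skin as CD45-, CD117-, CD24-, CD31- and EpCam-negative and Pdgfra- and CD34-positive, so both ages passed the same gate. Strain and sex are not given in the sources used here. The comparison asks how transcript levels differ with age. Values are log2 levels of normalized probe sets, so a difference of 1 is a doubling. In bulk RNA of sorted cells, fewer cells of a type and less RNA per cell cannot be told apart.

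Class I molecules display peptides from inside the cell to CD8 T cells. Peptides cut by the proteasome are pumped into the endoplasmic reticulum by the TAP transporter, trimmed there by Erap1 and fitted, with the help of tapasin, into a heavy chain paired with beta-2-microglobulin. NLRC5 is the class I counterpart of the class II activator CIITA: it does not bind DNA itself but joins a complex of RFX, CREB or ATF and NF-Y proteins on the class I promoters, and its own gene responds to interferon-gamma. H2-K1 and H2-D1 are classical heavy chains, and H2-M3 is a non-classical one that presents formylated peptides.

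Because this complex is known to assemble on promoters of classical class I genes, the windows of the 3 heavy chains are shown, from RefSeq (GRCm38.p6), 250 bases before to 50 after the transcript start. Windows were listed for 7 of the 9 genes. H2-K1 lies on the minus strand at chr17:34000298-34000597 (a window overlapping this one starts from another transcript), H2-D1 on the plus strand at chr17:35262844-35263143 and H2-M3 on the plus strand at chr17:37269984-37270283. Capitals mark 4 motifs searched as exact letters on both strands: the class I NF-kB site GGGATTCCC, the interferon regulatory factor core AANNGAAA, the site alpha motif TGACGC bound by CREB and ATF proteins, and the Y box CCAAT bound by NF-Y. Of these, site alpha and the Y box belong to proteins of the complex, and no motif for its RFX proteins was searched.
H2-K1: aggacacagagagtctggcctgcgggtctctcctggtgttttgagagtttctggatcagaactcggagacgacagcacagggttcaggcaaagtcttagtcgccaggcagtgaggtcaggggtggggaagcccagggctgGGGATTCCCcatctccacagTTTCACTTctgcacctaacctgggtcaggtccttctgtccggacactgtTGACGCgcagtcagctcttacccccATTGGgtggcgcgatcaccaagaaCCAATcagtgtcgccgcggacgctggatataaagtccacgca
H2-D1: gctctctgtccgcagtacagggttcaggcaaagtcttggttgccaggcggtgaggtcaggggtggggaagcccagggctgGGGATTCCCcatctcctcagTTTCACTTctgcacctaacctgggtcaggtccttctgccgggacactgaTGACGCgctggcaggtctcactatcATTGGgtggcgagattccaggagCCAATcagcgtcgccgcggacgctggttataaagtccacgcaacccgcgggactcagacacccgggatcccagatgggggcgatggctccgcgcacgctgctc
H2-M3: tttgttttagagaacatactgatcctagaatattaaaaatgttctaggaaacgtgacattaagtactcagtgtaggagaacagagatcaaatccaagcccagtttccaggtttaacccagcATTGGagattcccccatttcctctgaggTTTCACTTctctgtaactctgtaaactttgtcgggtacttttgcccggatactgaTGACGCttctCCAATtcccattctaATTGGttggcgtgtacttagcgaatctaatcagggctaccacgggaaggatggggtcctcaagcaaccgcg

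The NF-kB letters were found in 0.353% of all 32851 promoter windows of this length, site alpha in 7.4%, the interferon regulatory factor core in 23.9% and the Y box in 37.4%. H2-K1 and H2-D1 held all 4 motifs in the same order, with starts 20, 49 and 25 bases apart from the NF-kB site through to the first ATTGG (a Y box read on the opposite strand). H2-M3 held the interferon regulatory factor core, then site alpha 55 bases on and an ATTGG 25 bases after that. Its window had no NF-kB letters. None of the motifs overlapped another in these 3 windows. Of the other windows, Tapbp and Tap1 held Y boxes only, B2m a Y box and an interferon regulatory factor core, and Erap1 that core alone. A match of letters is a description of the sequence and does not show that a factor was bound.

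Nlrc5 was the 1 member that rose with age. Its level was 7.27, 7.15, 7.16 and 7.06 in old replicates 1 to 4, against 6.07, 6.14, 6.65 and 6.27 in young replicates 1 to 4. All old values lay above all young values, and young replicate 3 stood closest to the old animals. The means were 7.16 ± 0.09 in old and 6.28 ± 0.26 in young fibroblasts (SD, n = 4 each). The log2 difference was 0.88 ± 0.12 (SE), or 1.84-fold with a 95% interval of 1.53 to 2.20 (limma adjusted p = 8.9e-04 over all genes). By size it ranked 239th of the 1688 genes called higher in old, whose median difference was 0.44.

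The classical heavy chains did not pass the test. H2-K1 was at 12.48, 12.61, 12.59 and 12.59 in old replicates 1 to 4, against 12.56, 12.57, 12.67 and 12.58 in young replicates 1 to 4. H2-D1 was at 12.23, 12.24, 12.20 and 12.23 in old, against 12.21, 12.20, 12.33 and 12.24 in young fibroblasts. In both genes the groups overlapped and the highest value was that of young replicate 3. The log2 difference was -0.03 for H2-K1, with a 95% interval of -0.16 to 0.10 (adjusted p = 0.809), and -0.02 for H2-D1, with an interval of -0.15 to 0.11 (adjusted p = 0.859). Both probe sets lay close to the table's highest value of 13.04, a range in which arrays compress differences, and the part of this in the result was not tested.

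H2-M3 was at 9.45, 9.15, 9.16 and 9.39 in old replicates 1 to 4, against 9.13, 8.60, 8.95 and 8.98 in young replicates 1 to 4. The groups did not overlap, although old replicate 2 lay barely above young replicate 1. The log2 difference was 0.37 ± 0.12 (SE), with a 95% interval of 0.11 to 0.64, and missed the threshold (adjusted p = 0.0556). It passed without young replicate 1, at 0.44 (adjusted p = 0.034), with dim genes left out (adjusted p = 0.0447) and in limma's robust fit with a trend (adjusted p = 0.0427). Beside the background index described further on it differed by 0.30 (adjusted p = 0.716).

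Tapbp, the bridge between the TAP transporter and the empty heavy chain, was at 11.84, 11.60, 11.64 and 11.56 in old, against 11.71, 11.64, 11.72 and 11.70 in young fibroblasts. The old values fell on both sides of the young ones, old replicate 1 being the highest of all. The log2 difference was -0.03, with a 95% interval of -0.19 to 0.13 (adjusted p = 0.813). Erap1 was at 7.57, 7.60, 7.57 and 7.73 in old, against 7.46, 7.42, 7.58 and 7.47 in young fibroblasts. Young replicate 3 reached the old values, and the difference of 0.14 had an interval of -0.01 to 0.28 (adjusted p = 0.196).

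**Figure D1:**
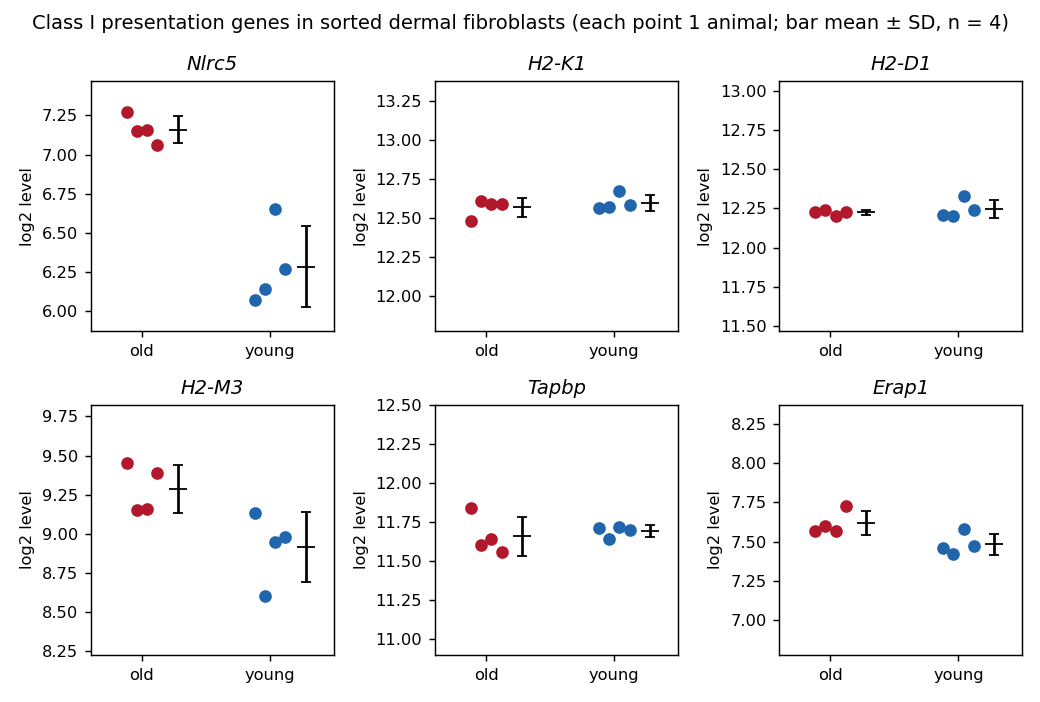
Log2 level of the 6 measured class I genes (y axis, each panel spanning the same width) in old and young fibroblasts, 1 point per animal, with the mean ± SD beside the points (n = 4 each). Nlrc5 averaged 7.16 in old and 6.28 in young animals without overlap, H2-M3 separated narrowly, and the other 4 genes overlapped.

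In all, 1 of the 6 measured members was called higher in old and 0 lower by limma (2 higher and 0 lower at an unadjusted p under 0.05). Over all genes 9.87% were called higher and 7.66% lower, together 17.5%, so a single call among 6 is near the background. A further quantile normalization turned the split over all genes to 1490 higher and 1681 lower, against 1688 and 1310, and Nlrc5 was still called (0.84, adjusted p = 0.00174). The groups did not overlap for 2 of the 6, Nlrc5 and H2-M3, against 21.3% of all genes. The median difference was 0.06 over the members and 0.01 over all genes.

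The 6 genes had 15 single-symbol probe sets, and these did not all show the same difference. Of the 15, 1 was called higher and 3 lower in old, with p-values adjusted over all 45141 probe sets, of which 7.6% were called higher and 5.48% lower. Of the 9 probe sets of H2-K1 and H2-D1, 8 carry the suffix x_at, which Affymetrix gives to probe sets that may also detect other transcripts. A further 5 probe sets were annotated to H2-K1, H2-D1 and the locus LOC547349 together. For these related genes a value may therefore be shared.

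The 4 H2-K1 probe sets gave differences of -0.03, 0.16, 0.10 and 0.04, and none passed. The probe set with the difference of 0.16, 1427746_PM_x_at, was at 12.22, 12.11, 12.13 and 12.25 in old, against 11.95 to 12.10 in young fibroblasts. Its groups just failed to overlap, and its difference of 0.16 had an interval of 0.02 to 0.30 (adjusted p = 0.133). The 5 shared probe sets differed by between -0.11 and 0.08, with no adjusted p below 0.453.

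Of the 5 H2-D1 probe sets, 3 differed by -0.02, -0.01 and 0.11 and did not pass, whereas 2 fell. These 2 were the dimmest of the 5, where array medians were 5.19 to 5.34 and the probe set standing for H2-D1 averaged 12.23 in old fibroblasts. Probe set 1451934_PM_at was at 4.48, 4.43, 4.64 and 4.85 in old, against 5.39, 4.96, 5.26 and 5.10 in young fibroblasts. Probe set 1452544_PM_x_at was at 5.78, 5.88, 6.15 and 6.02 in old, against 6.39, 6.21, 6.45 and 6.32 in young fibroblasts. Every old value lay below every young value in both, with differences of -0.58 ± 0.12 (SE, adjusted p = 0.0104) and -0.39 ± 0.09 (SE, adjusted p = 0.021). The second call was lost without old replicate 2 (adjusted p = 0.0595) or young replicate 3 (adjusted p = 0.0629).

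Probe sets for random sequence rich in G and C bases, which measure non-specific binding, also separated the ages. Their mean over the 8 sets named GC18 to GC25 was 5.53, 5.82, 6.18 and 5.78 in old, against 6.62, 6.34, 6.42 and 6.36 in young replicates 1 to 4, a difference of -0.61. With this index as a covariate the 2 H2-D1 probe sets differed by -0.34 (adjusted p = 0.683) and -0.06 (adjusted p = 0.951). Nlrc5 moved the opposite way to the index. With the covariate it differed by 0.75, with an interval of 0.21 to 1.29 and an unadjusted p of 0.0118, but its call was lost (adjusted p = 0.202). Over all genes this fit called 68 higher and 99 lower. As the index did not overlap between the ages, the fit cannot separate it from age. The SE of Nlrc5 was 0.24 in this fit, against 0.12 without the covariate. The loss of the Nlrc5 call can therefore not be told apart from a loss of precision. For the 2 H2-D1 probe sets the difference itself was also smaller than without the covariate.

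**Figure D2:**
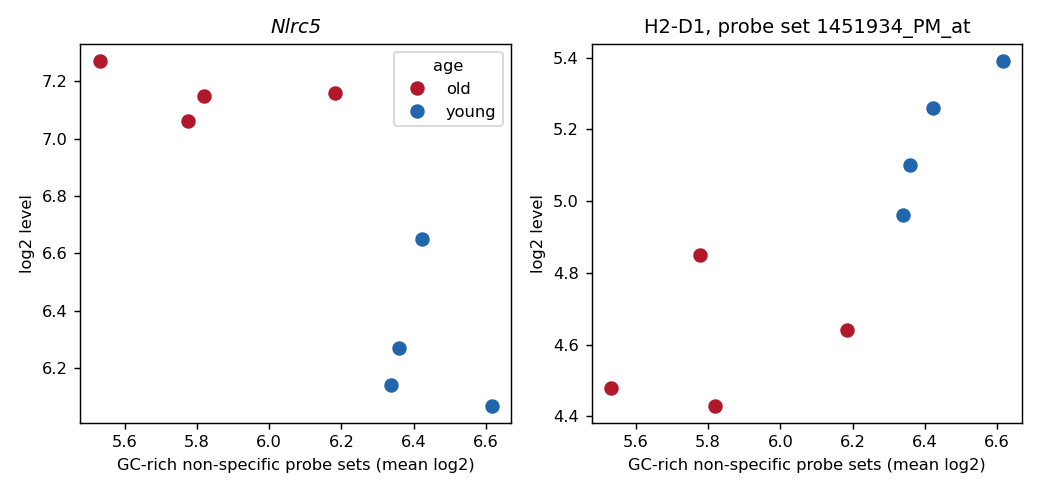
Log2 level of Nlrc5 (left) and of H2-D1 probe set 1451934_PM_at (right) against the mean log2 level of GC-rich non-specific probe sets, 1 point per animal, old in red and young in blue. Nlrc5 was higher in old animals, where the index was lower, and the H2-D1 probe set was lower with it.

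The second Tapbp probe set differed from the first. Probe set 1450378_PM_at was at 9.64, 9.74, 9.66 and 9.63 in old, against 9.96, 9.90, 10.02 and 9.99 in young fibroblasts. The groups were apart, with little spread in either, and the probe set fell by 0.30 on the log2 scale (SE 0.06, adjusted p = 0.00808). No array left out ended this call (adjusted p up to 0.0291), but it was lost with the background covariate (-0.28, adjusted p = 0.427). The second Erap1 probe set, 1439068_PM_at, differed by 0.04 (adjusted p = 0.889). Nlrc5 and H2-M3 had 1 probe set each, so no other probe set can be set beside theirs.

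**Figure D3:**
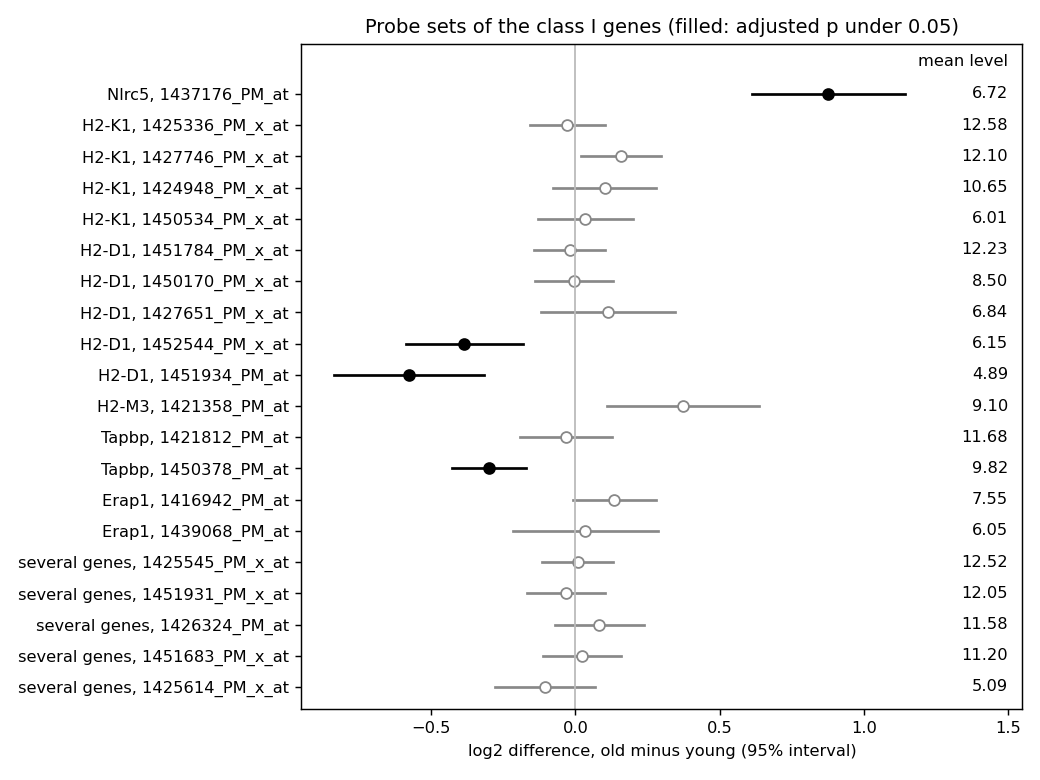
Log2 difference of old minus young with its 95% interval for the 15 single-symbol probe sets and the 5 shared by H2-K1, H2-D1 and LOC547349, filled where the adjusted p was under 0.05. Numbers on the right are the mean log2 level over the 8 arrays. Nlrc5 stands at 0.88, while 2 H2-D1 probe sets and 1 of Tapbp lie below 0.

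Other heavy chains and class I-like molecules gave a similar picture. Of 29 listed, 17 were measured, of which 1 rose and 16 did not pass, against 9.87% higher and 7.66% lower over all genes, with a median difference of -0.03 against 0.01. The gene that rose was Cd1d1, which presents lipids to natural killer T cells. It was at 6.66, 6.95, 6.60 and 7.45 in old, against 6.49, 6.13, 6.20 and 6.35 in young fibroblasts, a log2 difference of 0.62 (adjusted p = 0.0321). The call was lost without old replicate 2 or young replicates 2, 3 or 4 (adjusted p up to 0.0854). H2-Q5 at 0.57 (adjusted p = 0.0556) and H2-Q4 at 0.30 (adjusted p = 0.0939) missed the threshold, and were picked out for their size.

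Of 14 genes that supply peptides, 12 were measured, of which 2 rose, 1 fell and 9 did not pass, against 9.87% higher and 7.66% lower over all genes, with a median difference of 0.02. Psme1, a subunit of the PA28 activator of the proteasome, rose to 10.34, 10.43, 10.32 and 10.42 in old, against 9.96, 10.03, 10.12 and 10.05 in young fibroblasts, a log2 difference of 0.34 (adjusted p = 0.00447). The cytosolic peptidase Npepps rose by 0.25 (adjusted p = 0.0299), a call lost without any array but old replicate 3 (adjusted p up to 0.0822) and with the mean of all its probe sets (0.09, adjusted p = 0.36). Blmh, bleomycin hydrolase, another cytosolic peptidase, fell by 0.46 on the log2 scale (adjusted p = 0.00254). The inducible catalytic subunits of the immunoproteasome, named outside the rule for genes, did not pass: Psmb9 differed by 0.25 (adjusted p = 0.142), Psmb8 by 0.04 (adjusted p = 0.816) and Psmb10 by 0.06 (adjusted p = 0.744).

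All 8 folding and loading chaperones were measured, of which 2 fell and 6 did not pass, against 7.66% lower over all genes, with a median difference of -0.11. Pdia3 (ERp57), the oxidoreductase of the loading complex, was at 6.60, 6.34, 6.59 and 6.45 in old, against 6.78, 7.05, 6.88 and 6.72 in young fibroblasts, and fell by 0.36 on the log2 scale (adjusted p = 0.0206). This probe set of Pdia3 was far dimmer than those of Canx (11.42 in old) and Calr (11.70 in old), and no other probe set can be set beside it. Ganab, a glucosidase subunit that trims the glycans read by calnexin and calreticulin, fell by 0.32 (adjusted p = 0.0193). The call of Pdia3 was lost without old replicates 2 or 4 or young replicates 2 or 3 (adjusted p up to 0.0564), and that of Ganab without old replicate 2 or young replicates 3 or 4 (up to 0.0525).

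Of 24 regulators of class I transcription, 22 were measured, of which 3 rose, 3 fell and 16 did not pass, with a median difference of 0.04. Over all genes 9.87% were called higher and 7.66% lower. The kinase Jak2, which acts below the interferon-gamma receptor, rose to 8.58, 8.45, 8.39 and 8.62 in old, against 8.13, 8.14, 7.96 and 8.12 in young fibroblasts, a log2 difference of 0.42 (adjusted p = 0.00382). Irf9, the DNA-binding part of the type I interferon factor, rose by 0.37 (adjusted p = 0.0122). The receptor chain Ifngr2 fell by 0.47 (adjusted p = 0.00841), and Socs1, a feedback inhibitor of Jak kinases, fell by 0.58 (adjusted p = 0.0107). The Socs1 probe set was dim, averaging 5.06 in old and 5.635 in young fibroblasts, where array medians were 5.19 to 5.34.

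The RFX complex through which NLRC5 acts, named outside the rule for genes, moved both ways. Rfx5 rose by 0.29 (adjusted p = 0.0332) and Rfxap fell by 0.30 (adjusted p = 0.0234), while Rfxank differed by -0.16 (adjusted p = 0.135). Each of the 2 calls was lost when any of 4 single arrays was left out (adjusted p up to 0.083 for Rfx5 and 0.0676 for Rfxap). Rfx5 was also not called with median centring (adjusted p = 0.057) or quantile normalization (adjusted p = 0.061). Among the regulators 6 of 22 were called, against 17.5% of all genes. With array weights 6 in place of 3 fell, while over all genes 1568 in place of 1310 were called lower.

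The called interferon-gamma responsive genes went both ways, while Gbp4 was the only measured gene of the list with a negative difference. Of 18 listed, 15 were measured, of which 4 rose, 1 fell and 10 did not pass, against 17.5% of all genes called, with a median difference of 0.29 against 0.01 over all genes. The number that rose was 2 with each array's median taken off, with a further quantile normalization and with array weights, and 2 to 5 when single arrays were left out (2 without any of old replicates 1, 2 and 4 or young replicates 1, 2 and 4). Tgtp1, an interferon-inducible GTPase, rose to 7.97, 7.90, 7.74 and 7.50 in old, against 6.70, 5.62, 7.17 and 6.56 in young fibroblasts, a log2 difference of 1.27 (adjusted p = 0.0104). The guanylate-binding protein Gbp4 fell by 0.63 (adjusted p = 3.7e-04), whereas its relative Gbp2 rose by 0.57 (adjusted p = 0.0473) and the GTPase Irgm2 by 0.52 (adjusted p = 0.0399). Iigp1, named outside the rule for genes, rose by 0.42 (adjusted p = 0.012) and stayed called whichever single array was left out (adjusted p up to 0.0378). Gbp2 lost its call without any of 6 single arrays (adjusted p up to 0.106) and Irgm2 without any of 7 (up to 0.101). Both were also lost with median centring, quantile normalization and array weights (adjusted p of 0.0528 to 0.115), and Gbp2 with either other choice of probe set and in the robust fit with a trend (0.0509 to 0.0543). Young replicate 3, the young animal with most Nlrc5, also had the highest mean of this list among the young (0.11 after centring each gene), within the old range of 0.08 to 0.25.

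**Figure D4:**
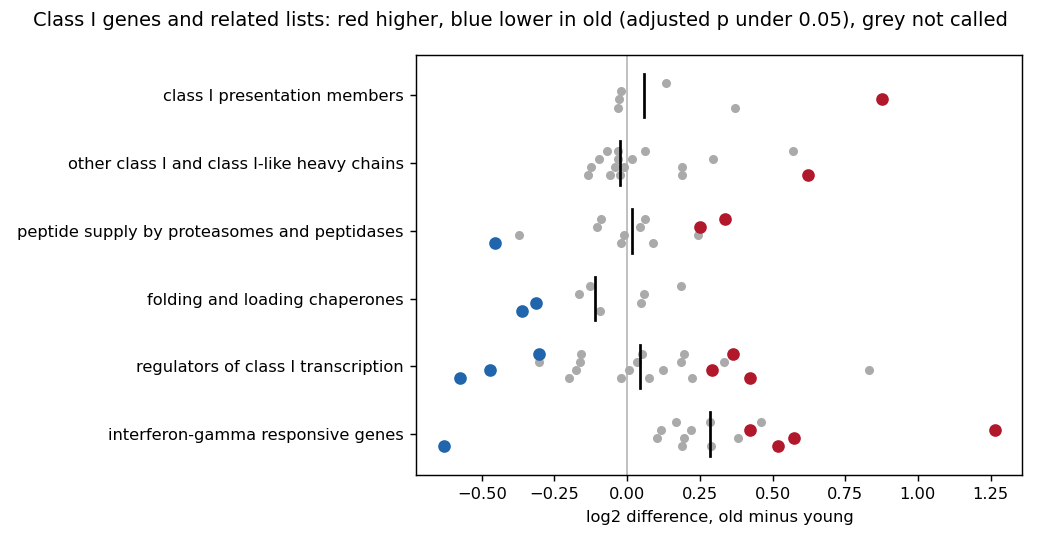
Log2 difference of old minus young for each measured gene of the class I list and of 5 related lists, red where called higher, blue where called lower and grey where not called, with the median of each list as a black line. The interferon-gamma responsive genes had a median of 0.29, and the other lists lay between -0.11 and 0.06.

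With the GC-rich background index as a covariate, 1 gene of these 5 lists was called, Gbp4 (-0.78, adjusted p = 0.0367). Irf9 then differed by 0.09, Npepps by 0.08 and Socs1 by -0.22, less than in the fit without it by over 1.5 times, as did Rfx5 (0.16), Gbp2 (0.35) and Jak2 (0.27). Psme1 differed by 0.28, Ifngr2 by -0.69 and Blmh by -0.57. Some calls were lost although the difference was larger than without the covariate, as in Tgtp1 (1.38), Rfxap (-0.40), Ifngr2 and Blmh.

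Over the 8 arrays, after each age group's mean was taken off, the correlation of the members with Nlrc5 was 0.894 for H2-D1, 0.417 for Tapbp, 0.416 for H2-K1, 0.398 for Erap1 and 0.091 for H2-M3. The genes most like Nlrc5 by this measure were Pex16 (0.962), Ufc1 (0.95), Spg7 (0.946), Tmem268 (0.943) and Pnpla7 (0.939). The value for H2-D1 rested largely on young replicate 3. That animal was at 6.65 for Nlrc5 and 12.33 for H2-D1, against 6.07 to 6.27 and 12.20 to 12.24 in the other young animals. All these correlations describe 8 arrays that share 1 normalization. The genes most like Nlrc5 were picked from 17097, leaving out predicted transcripts and symbols of the Gm, Rik, LOC, BC, AI and AW kinds.

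Class I genes are active in most cell types, so markers of other cells were read beside them. Each count of marker calls below is to be read against 9.87% of all genes called higher and 7.66% lower. Fibroblast markers were present in both ages, with Pdgfra at 8.52 in old and 8.36 in young and Cd34 at 11.68 in old and 11.73 in young fibroblasts. None of 11 lymphocyte and pan-leukocyte markers was called, and their mean level per array was 4.73 to 4.87 in old and 4.64 to 4.75 in young. The B cell gene Cd79a was at 7.20 in old and 7.21 in young fibroblasts. The gate's leukocyte marker Ptprc (CD45) was at 3.88 in old and 3.71 in young fibroblasts. Of 12 macrophage and dendritic markers 2 rose (Lyz2 and Tyrobp) and Csf1r fell by 1.92, with array means of 5.25 to 5.33 in old and 5.2 to 5.33 in young.

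Of 12 class II genes 3 rose, H2-Ab1 by 1.15, H2-Eb1 by 0.99 and Ctss by 1.29, with array means of 5.98 to 6.39 in old and 5.69 to 5.88 in young. Their activator Ciita was at 4.53 in old and 4.48 in young fibroblasts (adjusted p = 0.734). Of 11 keratinocyte markers 4 rose, among them Krt14 by 1.65 and Krt5 by 1.04, and Trp63 fell. Array means of this list were 7.85 to 8.87 in old and 7.04 to 8.25 in young. The gate's marker Epcam, in the same list, was at 4.43 to 4.99 in old and 4.19 to 4.32 in young fibroblasts. Its groups did not overlap, and its difference of 0.34 did not pass (adjusted p = 0.075). Old replicate 1, the animal with most Nlrc5, had the lowest mean of the class II and keratinocyte lists among the old. It had the highest mean of the interferon-gamma responsive list (0.25 after centring each gene). Young replicate 3, the young animal with most Nlrc5, had the highest mean of the keratinocyte list among the young (0.34 after centring each gene, against -0.87 to -0.42 in the other young animals), above old replicates 1 (-0.05) and 2 (0.21). In the class II list young replicate 3 was at -0.27, within the range of -0.28 to -0.09 of the other young animals. These are single animals picked by their Nlrc5 level, and a link to it was not tested.

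Of 10 endothelial markers 2 rose and 1 fell, against 9.87% higher and 7.66% lower over all genes. A single call in the lists of 6, 7 and 10 markers that follow is near those shares. The endothelial array means were 5.0 to 5.45 in old and 4.99 to 5.15 in young. The angiopoietin receptor Tek rose by 1.73 (adjusted p = 0.00111), with means of 8.05 in old and 6.32 in young fibroblasts, while Kdr was at 7.54 in old and 7.40 in young and the gate's marker Pecam1 (CD31) did not pass (adjusted p = 0.294). Of 6 pericyte and smooth muscle markers 1 rose, the potassium channel gene Kcnj8, by 0.64 (adjusted p = 0.0429), with array means of 6.53 to 7.01 in old and 6.10 to 6.30 in young. Of 7 melanocyte and Schwann markers 1 fell, Mlana, by 0.57 (adjusted p = 0.0324), and Sox10 was at 5.51 in old and 5.57 in young (array means of 4.46 to 4.55 in old and 4.52 to 4.64 in young). Of 10 fibroblast markers 1 fell, Col3a1, by 0.28 (adjusted p = 0.00765), and Dcn was at 12.70 in old and 12.79 in young (array means of 11.08 to 11.16 in old and 11.20 to 11.33 in young). The part of the cells these lists mark in the Nlrc5 difference was not tested.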

How the data were processed

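Amplified RNA of sorted dermal fibroblasts was measured on 8 Affymetrix arrays, 1 per mouse. The authors deposited log2 values per probe set, made with RMA and the R package affy, per the submitters' processing notes, which give no versions. RMA makes array distributions alike, which hides a shift shared by most transcripts. The table held 45141 probe sets, of which 28898 had 1 symbol in the platform annotation, 551 several and 15692 none. Of the 28898, 28689 matched a gene ID in a RefSeq table of GRCm38.p6, used for current symbols.

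Linear models of old minus young without covariates were fitted in R 4.3.3 using limma 3.58.1, with its moderated 2-sided test, over all 17097 genes and again over all probe sets. Calls have a Benjamini-Hochberg adjusted p under 0.05. The fit was tested on simulated arrays of old and young with 17097 genes: it recovered 70% of changes of size 0.5 (log2) and 93% of size 1, and 1.81% of its calls were false. In the simulation 200 genes were changed and the noise was independent between genes. These shares therefore do not cover noise that genes share, such as that followed by the background index. The number of arrays limits the precision, and no read depth applies. Related lists name up to 4 called genes of largest difference, and marker lists the brightest and the called gene of largest difference, with others marked as outside the rule, named as gate or defining markers, or named, after their values were seen, where few of a list were called. Members and lists were chosen with earlier results of these data known. The series text pairs 1 young and 1 old mouse per day, but no label ties specimen numbers to days, so no block was used. Alternatives covered scaling, dim genes, probe set choice, fit settings, a block, a background covariate and leaving out each array. Figures were drawn with matplotlib 3.10.9.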

Additional observations from a re-analysis of the deposited data

Results flagged for a closer look

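In H2-K1 probe set 1425336_PM_x_at, old replicate 1 lay far from the other old animals, at 12.48 against 12.59 to 12.61 in the others, a gap of 0.846 of the group's range. It was the 1 such value among 40 groups of 4 arrays examined over the members' probe sets, and chance gives about 1 in 20. Without it the H2-K1 difference was 0.0017 (adjusted p = 0.991).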

How the results depend on the processing

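The call of Nlrc5 held under every alternative run but the background covariate, with differences of 0.82 to 0.88 and, leaving out single arrays, 0.81 to 1.00 (adjusted p up to 0.00382). With that covariate 0 members and 0 of their probe sets were called in either direction, and genes called fell to 68 higher and 99 lower, against 1688 and 1310. The covariate did not overlap between the ages, so the fit cannot separate it from age. The loss of the Nlrc5 call cannot be told apart from a loss of precision. The H2-D1 probe sets 1452544_PM_x_at and 1451934_PM_at also had smaller differences, from -0.39 to -0.06 and from -0.58 to -0.34. Members called higher numbered 2 with dim genes left out, with trend and robust settings and with the replicate block, where H2-M3 joined (adjusted p = 0.0137). The most variable probe set of each gene gave 2 members called lower, H2-D1 (-0.58, by its dimmest probe set) and Tapbp (-0.30). With the replicate block 2 probe sets were called higher. Leaving out single arrays gave 1 to 2 members and 1 to 2 probe sets called higher, 0 members and 2 to 3 probe sets called lower. Same-numbered animals deviated together with correlations of 0.285, 0.052, -0.044 and 0.224, so the specimen numbers are not shown to pair them.

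Differences near 0 changed sign without being called. H2-K1 was 0.0169 after quantile normalization, 0.0669 with the mean of all probe sets, 0.103 with the most variable and 0.038 with the covariate. Probe set 1439068_PM_at was -0.0084 and 1450534_PM_x_at -0.0013 after quantile normalization, and the second -0.0003 with array weights. Leaving out single arrays gave -0.0417 to 0.0017 for H2-K1, -0.035 to 0.0083 for H2-D1, -0.0925 to 0.0008 for Tapbp, -0.0442 to 0.149 for 1439068_PM_at, -0.0325 to 0.0308 for 1450170_PM_x_at and -0.0125 to 0.0775 for 1450534_PM_x_at. The cause of these changes was not tested.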
